A study of Mus musculus with 4 samples.

Results

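The Notch genes described here are 10 of the 18193 named genes on the arrays: the receptors Notch1, Notch3 and Notch4, the ligands Dll4, Jag1 and Jag2, and the target genes Hes1, Hey1, Hey2 and Heyl. They were chosen by name, as the probe sets whose platform gene symbol is one of these, and 20 of the 45037 probe sets tested carried such a symbol. All 10 genes had at least 1 probe set, 7 had more than 1, and a gene was represented by its brightest probe set, judged by the mean of the arrays. The arrays (Affymetrix Mouse430_2) held endothelial cells of B16 melanoma, a pigmented tumor line of C57BL/6 mice, grown for 2 weeks in C57BL/6 mice with a multi-color Cre reporter. Cre activity gives each labeled cell of such mice 1 of several colors, which its daughter cells inherit and which unrelated cells can share; all 4 samples came from tamoxifen-labeled tumors and were sorted as CD45-CD31+CD144+ cells. The most frequent clone (Clonal Expansion) and the least frequent clone (Clonal Extinction) of Tumor A and of Tumor B were each hybridised once, which makes 2 arrays per clone class and 2 per tumor. The driver of the Cre, the age of the mice and the number of cells per sample are not given in the sources used here.

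Notch signaling passes between touching cells. A ligand of the Delta-like or Jagged type on a cell binds a Notch receptor on its neighbor, the receptor is cut by an ADAM protease and by gamma-secretase, and the freed intracellular domain joins the DNA-binding protein RBPJ in the nucleus to switch on Hes and Hey genes, which encode basic helix-loop-helix repressors. In blood vessels the pathway is known for restraining sprouting, where Dll4 on tip cells acts on Notch1 of the stalk cells, for arterial identity, and for the coverage of vessels by mural cells, which depend on Notch3.

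Markers were read before the Notch genes, since the arrays did not hold endothelial RNA alone. On the log2 scale, the 20 measured genes of the pan-endothelial list averaged 8.23 (expansion) and 10.55 (extinction) for Tumor A, with 10.95 (expansion) and 9.20 (extinction) for Tumor B. The 13 measured of 14 melanoma genes ran the other way, with means of 12.54, 7.90, 6.90 and 11.78 in the same array order, so that expansion A and extinction B stood apart from the other 2 arrays. The pericyte and smooth muscle list (12 of 12 genes) averaged 9.97, 10.85, 10.01 and 9.80, and the fibroblast list (10 of 10 genes) 11.85, 12.89, 13.19 and 12.37, both bright on every array. The leukocyte list (9 of 10 genes) averaged between 5.93 and 6.20, near the 5.83 that was the median level of all probe sets. Its genes differed, with 5 of the 9 at or above that level by their mean. Csf1r, 1 of these, was above that level on every array (8.11 to 9.97). CD45 (Ptprc), the marker sorted against, was below that level on every array (3.63 to 4.27). CD144 (Cdh5), a marker sorted for, was above that level on every array (8.69 to 11.51). CD31 (Pecam1), the other marker sorted for, was dimmer, from 6.16 on expansion A to 8.82 on extinction A. Sums of the log2 values of a list only rescale the list means above. Over the pan-endothelial list this sum was 164.6 (Tumor A) and 219.1 (Tumor B) in the expansion arrays. In the extinction arrays it was 211.0 (Tumor A) and 184.1 (Tumor B). The sum over the melanoma list was 163.0 (Tumor A) and 89.7 (Tumor B) in the expansion arrays. In the extinction arrays it was 102.7 (Tumor A) and 153.1 (Tumor B). RMA values have no 0. Markers of other cells thus moved with the arrays, and their part in the results below was not tested. In such bulk samples, fewer cells of a type and less RNA per cell cannot be told apart.

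The first question was how the Notch genes differed between the most and the least frequent clone. They did not differ in a common direction: within Tumor A 9 of the 10 genes were at least 2-fold lower in expansion (10.4 percent of all genes), and within Tumor B 6 were at least 2-fold higher in expansion (9.68 percent of all genes). By sign, 9 of the 10 genes were lower in expansion in Tumor A and higher in Tumor B, as were 39.5 percent of all genes, and 5 genes, Notch1, Notch4, Dll4, Hes1 and Hey1, were so by at least 2-fold in both tumors (5.65 percent of all genes; 8.78 percent were 2-fold apart in opposite directions either way round). None was 2-fold higher in expansion in Tumor A (5.89 percent of all genes) or 2-fold lower in Tumor B (4.77 percent). The exception in sign was Heyl, lower in expansion in both tumors, as were 14.1 percent of all genes. Of the 10, 0 moved 2-fold in one shared direction, where 0.0879 percent of all genes did. The median log2 difference between expansion and extinction over the 10 genes was -1.53 for Tumor A against 1.16 for Tumor B; over all genes these medians were -0.036 and 0.067. With 1 array per class in a tumor these within-tumor differences have no replicate check and no test. Whether each array matches its label was not tested, and an exchange of the 2 arrays of one tumor would turn the signs of that tumor.

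**Figure D1:**
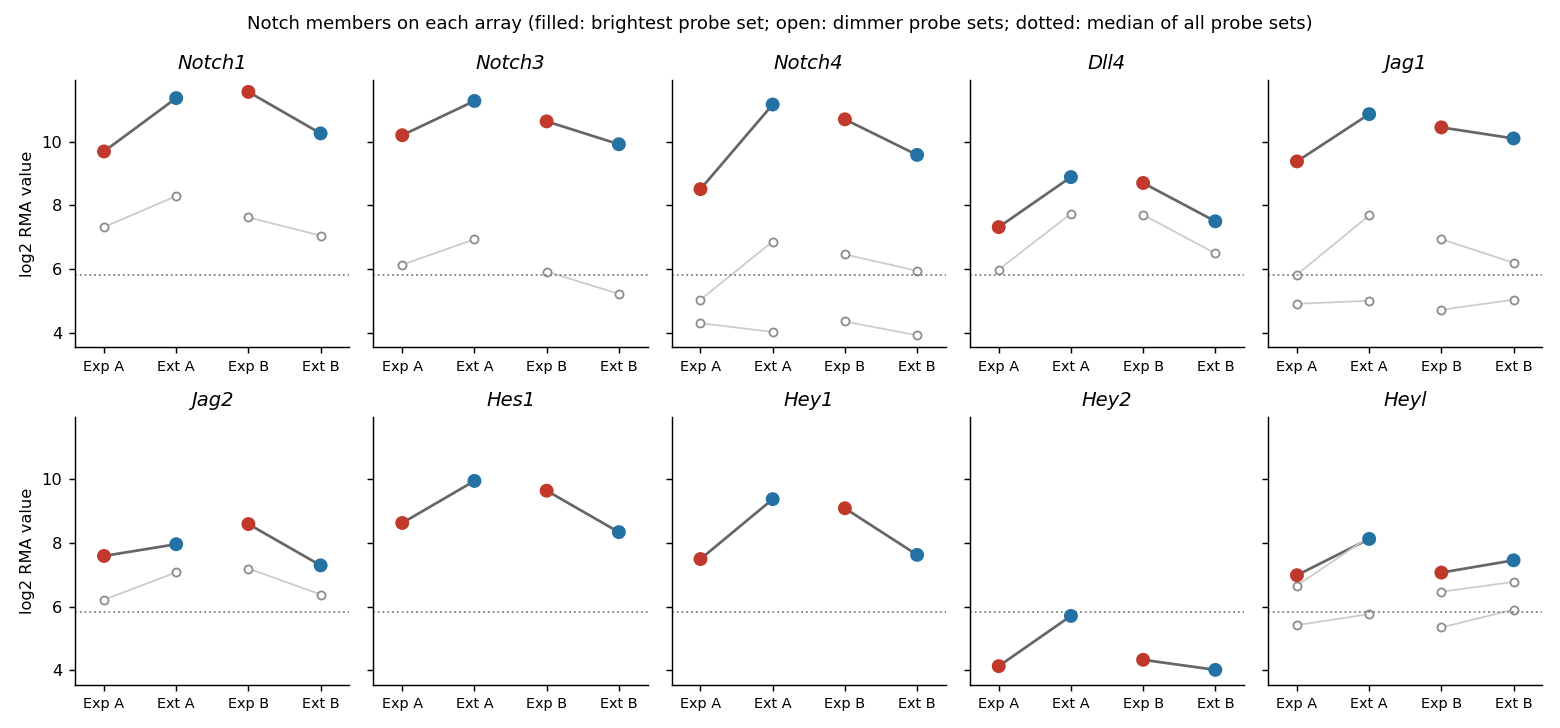
Log2 RMA value (y axis) of every probe set of the 10 Notch genes on the 4 arrays (x axis; Exp, expansion, red; Ext, extinction, blue; A and B, the tumors); filled points are the brightest probe set of a gene, open points its dimmer ones, lines join the 2 arrays of a tumor, and the dotted line is the median of all probe sets, 5.83. The filled points of 9 genes go up from expansion to extinction in tumor A and down in tumor B, and those of Heyl go up in both.

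Of the receptors, Notch1 is the one with the best known part in sprouting. Its brighter probe set (1418634_at) was at 9.69 (expansion) and 11.37 (extinction) for Tumor A, with 11.56 (expansion) and 10.26 (extinction) for Tumor B. It was thus high on the 2 arrays with high endothelial and low melanoma markers, and the clone classes overlapped. The classes were 3.19-fold apart in Tumor A and 2.47-fold in Tumor B, in opposite directions, and the mean log2 difference of expansion minus extinction was -0.19 ± 0.84 (SE, n = 2 per class). The dimmer probe set (1418633_at) had the same signs, with -0.97 (Tumor A) and 0.57 (Tumor B).

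Notch4 is a receptor largely restricted to endothelium. It was at 8.51 (expansion) and 11.17 (extinction) for Tumor A, with 10.70 (expansion) and 9.59 (extinction) for Tumor B (1449146_at). It had the widest range over the arrays of the 10 genes, expansion A being its lowest by over 1 log2 unit, and the classes overlapped. The classes were 6.30-fold apart in Tumor A and 2.17-fold in Tumor B, with a mean log2 difference of -0.77 ± 1.04 (SE, n = 2 per class). A dimmer probe set (1456263_at) differed by -1.83 (Tumor A) and 0.51 (Tumor B), and the dimmest (1436901_at), below the median level on every array, by 0.27 and 0.43.

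Notch3 is the receptor of pericytes and smooth muscle cells. Its brighter probe set (1421965_s_at) was at 10.20 (expansion) and 11.28 (extinction) for Tumor A, with 10.64 (expansion) and 9.92 (extinction) for Tumor B. Extinction A was high and the other 3 arrays lay within 0.72 of each other, the order that the pericyte and smooth muscle list also had in its highest array, extinction A, and its lowest, extinction B. The log2 difference was -1.07 (Tumor A) and 0.72 (Tumor B), with a mean of -0.18 ± 0.56 (SE, n = 2 per class). The suffix _s_at marks a probe set that can match more than 1 transcript. The dimmer probe set (1421964_at) differed by -0.80 and 0.70.

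Of the ligands, Dll4 is the one that tip cells present under VEGF. It was at 7.32 (expansion) and 8.89 (extinction) for Tumor A, with 8.71 (expansion) and 7.50 (extinction) for Tumor B (1421827_at). The 2 high and the 2 low arrays were nearly level with each other, and each pair held 1 array of each class. The classes were 2.97-fold apart in Tumor A and 2.30-fold in Tumor B, with a mean log2 difference of -0.18 ± 0.76 (SE, n = 2 per class). Its other probe set (1421826_at) was nearly the same, with -1.75 and 1.21.

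Jag1, a ligand that competes with Dll4 during sprouting and also signals to mural cells, was at 9.38 (expansion) and 10.87 (extinction) for Tumor A, with 10.45 (expansion) and 10.10 (extinction) for Tumor B (1434070_at). Expansion A was the low array, and the 2 arrays of Tumor B differed by only 0.35. The mean log2 difference was -0.57 ± 0.52 (SE, n = 2 per class). A dimmer probe set (1421106_at) differed by -1.86 (Tumor A) and 0.74 (Tumor B), and the dimmest (1421105_at), below the median level, by -0.095 and -0.32.

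Jag2, the other Jagged ligand, was at 7.59 (expansion) and 7.96 (extinction) for Tumor A, with 8.59 (expansion) and 7.29 (extinction) for Tumor B (1426430_at). Expansion B was the high array, and the classes were 2.46-fold apart in Tumor B but 1.29-fold in Tumor A. It was the one gene of the 10 with a mean difference above 0, at 0.46 ± 0.48 (SE, n = 2 per class). Its dimmer probe set (1426431_at) gave -0.86 and 0.82 in the 2 tumors, so that its mean was -0.022.

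Promoter sequences are shown for Notch4, the gene that varied most over the arrays, for Dll4, the tip cell ligand, and for Hey2, a target gene. Promoters of 7 of the 10 genes were found in a RefSeq table of build GRCm38.p6, each covering 250 bases before and 50 bases after the start of the gene; Hes1, Hey1 and Heyl had no entry. The 250 bases before the start are printed 5′ to 3′ along the gene, at chr17:34564045-34564294 (plus strand) for Notch4, chr2:119325534-119325783 (plus strand) for Dll4 and chr10:30842784-30843033 (minus strand) for Hey2. Capitals mark matches to any of the motifs searched below.
Notch4: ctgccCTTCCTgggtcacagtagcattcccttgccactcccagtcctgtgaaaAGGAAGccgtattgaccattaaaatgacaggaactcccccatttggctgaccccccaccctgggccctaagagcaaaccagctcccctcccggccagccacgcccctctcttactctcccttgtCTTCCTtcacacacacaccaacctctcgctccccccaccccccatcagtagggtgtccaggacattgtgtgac
Dll4: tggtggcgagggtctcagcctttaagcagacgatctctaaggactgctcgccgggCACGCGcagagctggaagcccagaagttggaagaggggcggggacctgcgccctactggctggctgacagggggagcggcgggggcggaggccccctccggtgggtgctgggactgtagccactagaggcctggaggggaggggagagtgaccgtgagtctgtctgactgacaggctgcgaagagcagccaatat
Hey2: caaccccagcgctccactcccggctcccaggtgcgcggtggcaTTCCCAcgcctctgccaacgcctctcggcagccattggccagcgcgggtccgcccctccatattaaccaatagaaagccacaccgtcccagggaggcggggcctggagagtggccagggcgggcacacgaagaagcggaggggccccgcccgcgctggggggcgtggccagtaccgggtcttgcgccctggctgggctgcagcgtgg

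The motifs were searched on both strands of the 300-base windows: TGGGAA, the core that RBPJ binds, CACGTG or CACGCG, the sites of HES and HEY repressors, AGGAAG or CGGAAG, letters that many ETS factors bind, and TGACTCA, the AP-1 site. The RBPJ core was in the Hey2 window 2 times and in none of the other 6, against 25.6 percent of 32851 promoters with at least 1 match and 3.79 percent with at least 2. One match began 207 bases before the start, read as ttccca on the printed strand, and the other began 3 bases before it and ran past it. The Notch4 window held AGGAAG 4 times, 2 of them on the opposite strand and read as cttcct, as did 1.27 percent of promoters for AGGAAG and CGGAAG together; the other 6 windows held neither, against 46.5 percent of promoters with at least 1. The Notch4 window also held an AP-1 match that began 4 bases before the start (5.2 percent of promoters held one). A HES and HEY site was in the windows of Dll4, Jag1 and Jag2 (15.4 percent of promoters). No 2 matches overlapped in these windows. The 30 bases around the start, with 15 on each side, show the matches that cross it, at chr10:30842769-30842798 (minus strand) for Hey2 and chr17:34564280-34564309 (plus strand) for Notch4, the RBPJ core and the AP-1 site being in capitals. A match is a description of letters, and binding was not measured.
Hey2 start: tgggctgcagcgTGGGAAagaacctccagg
Notch4 start: aggacattgtgTGACTCAggaaacagctca

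Of the target genes, Hes1 is a broad target in many tissues and Hey1 a target with a known role in vessel development. Hes1 was at 8.62 (expansion) and 9.94 (extinction) for Tumor A, with 9.64 (expansion) and 8.34 (extinction) for Tumor B (1418102_at). Hey1 was at 7.49, 9.37, 9.08 and 7.62 in the same array order (1415999_at). Both were high on extinction A and expansion B and low on the other 2, as Dll4 was. The mean log2 difference was -0.0097 ± 0.74 (SE) for Hes1 and -0.21 ± 0.91 (SE) for Hey1, with n = 2 per class. In Tumor A the classes were 2.50-fold apart for Hes1 and 3.68-fold for Hey1, and in Tumor B 2.46-fold and 2.76-fold the other way.

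Hey2, the target whose promoter held the RBPJ core 2 times, is known as an early arterial gene. It was at 4.13 (expansion) and 5.71 (extinction) for Tumor A, with 4.33 (expansion) and 4.01 (extinction) for Tumor B (1418106_at). It was below the median level of all probe sets on every array, and extinction A exceeded the next array by 1.38 while the other 3 lay within 0.32. Its mean log2 difference was -0.63 ± 0.66 (SE, n = 2 per class), and it rests on extinction A, since without that array it was 0.22.

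Heyl, a Hey gene known from smooth muscle cells and pericytes, was at 6.98 (expansion) and 8.12 (extinction) for Tumor A, with 7.07 (expansion) and 7.45 (extinction) for Tumor B (1419302_at). It was the only one of the 10 genes whose clone classes did not overlap, both extinction arrays being above both expansion arrays, as for 9.11 percent of all genes (20.7 percent had classes that did not overlap in either direction). The other genes had opposite signs in the 2 tumors, which makes classes overlap of necessity. The mean log2 difference of Heyl was -0.76 ± 0.29 (SE, n = 2 per class, 95% interval -1.63 to 0.10). Its 3 probe sets had these signs: 1438886_at differed by -1.53 (Tumor A) and -0.31 (Tumor B), and 1419303_at by -0.35 and -0.56. Of the pericyte and smooth muscle markers, 5 of 12 were lower in expansion in both tumors, against 14.1 percent of all genes. The other 7 were higher in expansion in Tumor B, unlike Heyl. The list median was -0.84 for Tumor A against 0.17 for Tumor B. The tip cell list had 7 of 10 genes lower in expansion in both, and 3 higher in Tumor B. The part of either cell type in the Heyl values was not tested. Heyl did not pass the test (adjusted p = 1 by limma over all probe sets), and an exact permutation test of 2 against 2 arrays gave 0.333, the smallest two-sided p this design allows.

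Over both tumors none of the 10 genes passed the test between clone classes. Limma with Benjamini-Hochberg adjustment called 0 of 45037 probe sets (0 percent), and 469 (1.04 percent) had an unadjusted p under 0.05. Of the 20 Notch probe sets, the dimmest of Heyl, 1419303_at, had such a p (unadjusted p = 0.0490, adjusted p = 1 by limma), and none of the 10 that stood for a gene did. For 8 of the 10 genes the mean difference was smaller than its standard error, the others being Jag1 and Heyl. The interval of the difference was wide, from -2.67 to 2.30 for Notch1 and from -2.43 to 2.06 for Dll4 (95%, limma), so that a difference of several fold in either direction is within it. The direction of the mean was fixed by single arrays: in 8 genes it turned when some array was left out, the exceptions being Jag1 and Heyl, although that of Jag1 shrank from -0.57 to -0.035 without expansion A. Without expansion A it was 0.75 for Notch1, 0.33 for Notch4, 0.51 for Dll4, 0.50 for Hes1, 0.59 for Hey1 and 0.039 for Notch3. Without extinction A it was 0.37 for Notch1, 0.021 for Notch4, 0.51 for Dll4, 0.79 for Hes1, 0.67 for Hey1 and 0.50 for Notch3. For Jag2 it was -0.035 without expansion B. Heyl kept its sign, between -1.10 and -0.43.

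**Figure D2:**
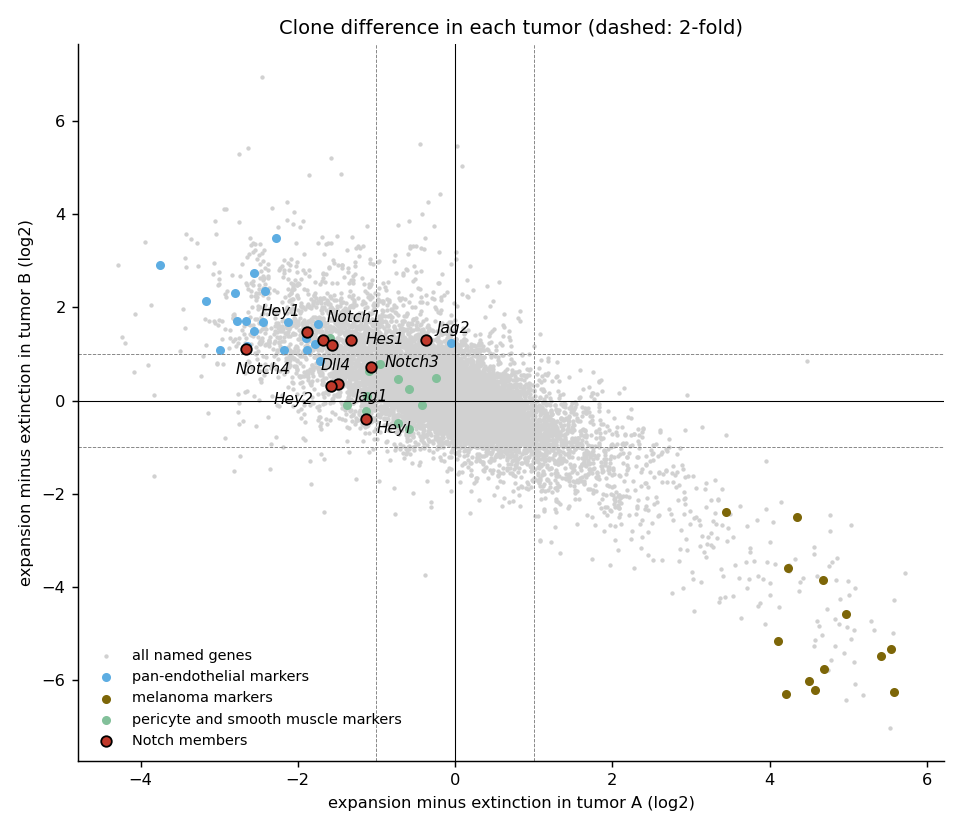
Difference of expansion minus extinction (log2) in tumor A (x axis) and tumor B (y axis) for all 18193 named genes (grey), with the Notch genes in red, pan-endothelial markers in blue, pericyte and smooth muscle markers in green and melanoma markers in brown; dashed lines mark 2-fold. Of the Notch genes, 9 of 10 lie in the upper left quadrant with the 20 endothelial markers, Heyl lies below it, and the 13 melanoma markers lie in the lower right quadrant.

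The Notch genes were also set against the endothelial markers of the same arrays. The mean difference of the pan-endothelial list was -2.32 (Tumor A) and 1.75 (Tumor B). With that mean subtracted, 9 of the 10 Notch genes lay above 0 for Tumor A, from 0.44 for Hey1 to 1.95 for Jag2, and all 10 lay below 0 for Tumor B, from -0.29 for Hey1 to -2.14 for Heyl. Of all genes 98.7 percent lay above 0 for Tumor A and 97.1 percent below 0 for Tumor B on this scale, so these counts are no result about the Notch genes. Notch4 was the exception, at -0.34 (Tumor A) and -0.63 (Tumor B). It was the one gene of the 10 whose difference lay below the endothelial mean difference in both tumors. Its mean difference on this scale was -0.49 ± 1.64 (SE, n = 2 per class; adjusted p = 1 by limma; the fit gave all 10 genes this SE). On the same scale Notch3 and Heyl passed 2-fold in both tumors, at 1.24 and 1.18 for Tumor A and -1.03 and -2.14 for Tumor B, as did 84.2 percent of all genes. The medians over the Notch genes, 0.79 and -0.59, lay nearer the endothelial mean than those over all genes, 2.28 and -1.68.

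**Figure D3:**
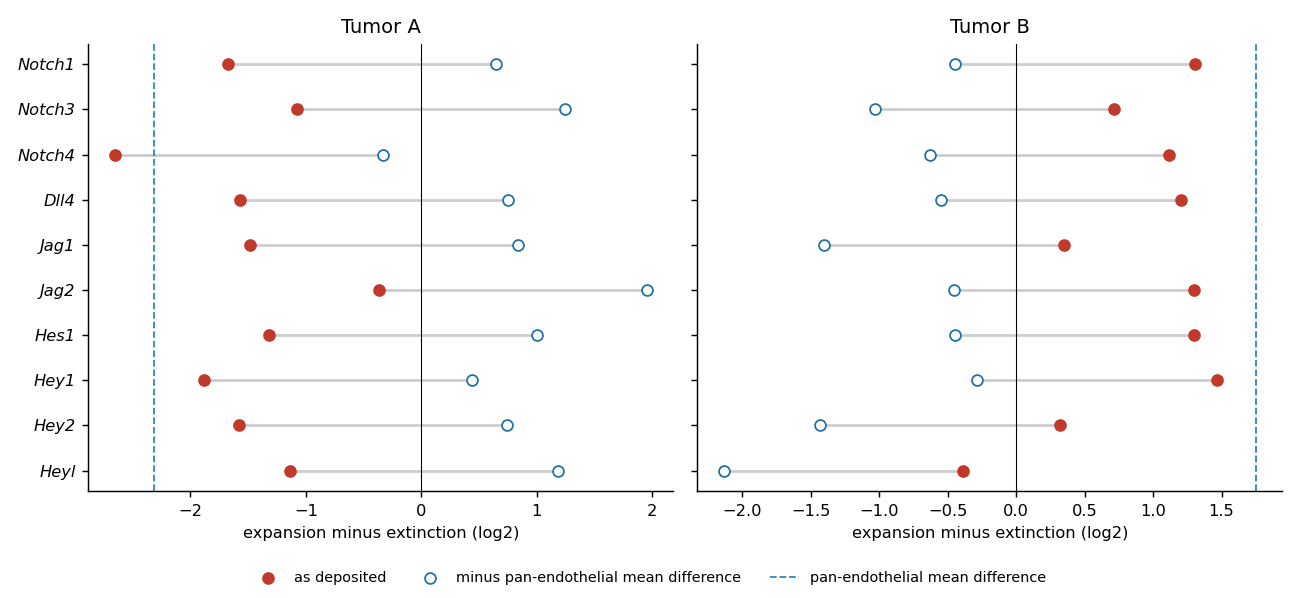
Difference of expansion minus extinction (x axis, log2) of the 10 Notch genes (y axis) in tumor A and tumor B, as deposited (red) and after subtraction of the pan-endothelial mean difference (open blue), which the dashed line marks at -2.32 and 1.75. In tumor A all open points but that of Notch4 lie above 0, and in tumor B all 10 lie below 0.

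The profiles over the 4 arrays differed among the Notch genes. As a description over 4 arrays, each gene's values minus its own mean were compared by Euclidean distance on the log2 scale. Dll4 lay nearest to Hey1 (0.30) and Hes1 (0.35), and Notch1 to Dll4 (0.40), while Notch4 and Jag2 were farthest apart (1.63). Set against the mean profile of marker lists, Notch1 and Notch4 were nearer the pan-endothelial list (0.63 and 0.64) than the pericyte and smooth muscle list (1.30 and 1.62), as was Hey1 (0.85 against 1.21), with Dll4 near level between these lists (0.95 and 0.99). Notch3, Hey2 and Heyl were nearer the pericyte list (0.39, 0.56 and 0.50) than the endothelial list (1.62, 1.84 and 1.99), and so were Jag1 (0.79 against 1.27), Jag2 (1.08 against 1.51) and Hes1 (0.86 against 1.25). The distance was not scaled for how widely a gene varied. A gene of small range can thus lie near a list of small range whatever its order of arrays. Jag2 was highest on expansion B, as the endothelial list was, whereas the pericyte list was highest on extinction A. The fibroblast list was the nearest of the 4 lists compared for Notch1 (0.56), Dll4 (0.62), Jag1 (0.53), Jag2 (0.63) and Hes1 (0.81); the tip cell list was nearest for none. The genes with profiles most like those of 4 Notch genes were Ece1, Myh10 and Pde7b for Notch1 (0.091 to 0.11), Nusap1, Tmem150c and Alad for Notch3 (0.054 to 0.085), Tpbg, Gchfr and Matn2 for Notch4 (0.043 to 0.11) and Twist1, Sh2d3c and Stambpl1 for Dll4 (0.056 to 0.12). The median distance of all genes was 1.54, 1.05, 2.05 and 1.39 from these 4.

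**Figure D4:**
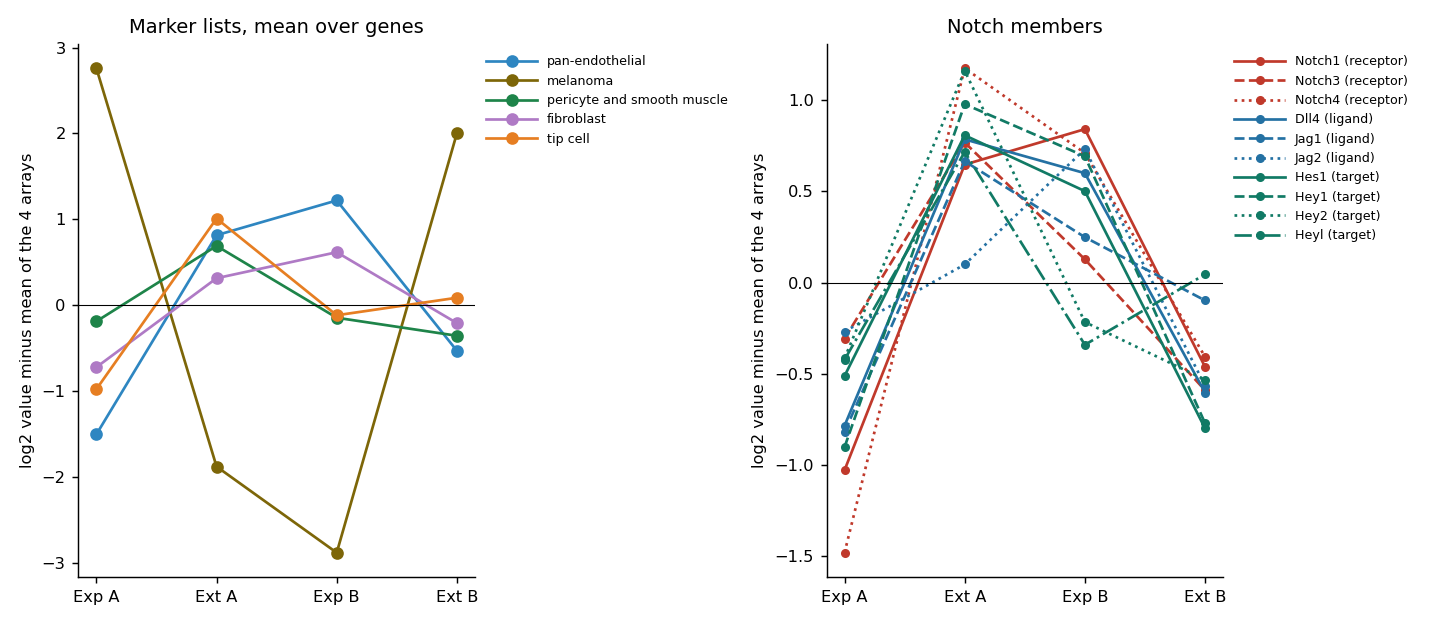
Log2 value minus the mean of the 4 arrays (y axis) on each array (x axis; Exp, expansion; Ext, extinction; A and B, the tumors) for the mean of 5 marker lists (left) and for each Notch gene (right, colored by role); lines join values of 1 list or gene for reading only. The melanoma list peaks on expansion A and extinction B, 8 of 10 Notch genes peak on extinction A and Notch1 and Jag2 on expansion B.

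The other genes of the pathway did not move as one group. Of 57 further genes, 53 were measured, and 0 rose and 0 fell between clone classes by limma over all probe sets (adjusted p = 1 for each; 0 had an unadjusted p under 0.05). Their median difference was 0.056 for Tumor A and 0.25 for Tumor B. By sign, 20 of the 53 were lower in expansion in Tumor A and higher in Tumor B, against 39.5 percent of all genes. The reverse held for 17 (5206 of all 18193 genes). In both tumors 12 were higher (3141 of all genes) and 3 were lower (2570 of all genes). Neurl1a was level in Tumor B. In Tumor A 7 of the 53 were at least 2-fold lower in expansion (10.4 percent of all genes) and 3 at least 2-fold higher (5.89 percent). In Tumor B 10 were at least 2-fold higher (9.68 percent of all genes) and 4 at least 2-fold lower (4.77 percent).

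The further genes that were 2-fold apart in opposite directions were chosen after their values were seen. In the direction of the Notch genes there were 6 of 53 (5.65 percent of all genes), and 3 in the other (3.14 percent). Nrarp, a feedback inhibitor that Notch itself induces, was at 8.49 (expansion) and 10.60 (extinction) for Tumor A, with 10.14 (expansion) and 8.94 (extinction) for Tumor B. Efnb2, the arterial ephrin and a Notch target, differed by -2.22 (Tumor A) and 1.35 (Tumor B), although 1 of its 4 probe sets, a dim one, was near 0 in both. The Fringe glycosyltransferase Mfng differed by -2.11 and 2.13 and the ubiquitin ligase Neurl1b, which acts on ligands, by -3.02 and 1.63. The Deltex family genes Dtx4 and Dtx3l differed by -1.48 and 1.60 and by -1.51 and 1.67. In the opposite direction, with the melanoma markers, were the gamma-secretase subunit Psen2 at 2.88 and -1.38, the RBPJ corepressor Spen at 1.76 and -1.46 and the acetyltransferase Kat2a at 1.14 and -1.03; for Psen2 the dimmer of 2 probe sets was near 0 in both tumors, and 1 of 3 probe sets of Kat2a had other signs.

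Of other genes chosen after their values were seen, the DNA-binding partner Rbpj differed by -0.35 (Tumor A) and 0.77 (Tumor B), the receptor Notch2 by -0.19 and 0.79, and the receptor protease Adam10 by -0.015 and 0.0079. The ligand Dll1 differed by -0.17 and 1.63. Among genes with the same sign in both tumors, the ligand-like Dner had the largest mean difference, 1.54 ± 0.97 (SE, n = 2 per class), nearly all of it from Tumor B (0.19 and 2.89). Its other probe set had a negative sign in Tumor A. The acetyltransferase Kat2b differed by 0.58 ± 0.30 (SE), Poglut1, which adds glucose to Notch, by 0.37 ± 0.25 (SE), the coactivator Maml1 by 0.37 ± 0.19 (SE), Fbxw7, a ubiquitin ligase subunit for the Notch intracellular domain, by 0.31 ± 0.20 (SE), and Ncstn, a gamma-secretase subunit, by 0.21 ± 0.18 (SE). The transcription factor Gata3, near the low end of the scale, differed by 0.39 ± 0.21 (SE). The other genes chosen by this rule were Dlk1, Dll3, Lfng, Pofut1, Maml2, Dtx1, Dtx2 and Hes2, with mean differences from -0.18 for Hes2 to 0.29 for Dtx2. Probe sets with other signs numbered 2 of 3 for Kat2b, 1 of 3 for Maml1 and 1 of 2 each for Fbxw7 and Ncstn.

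**Figure D5:**
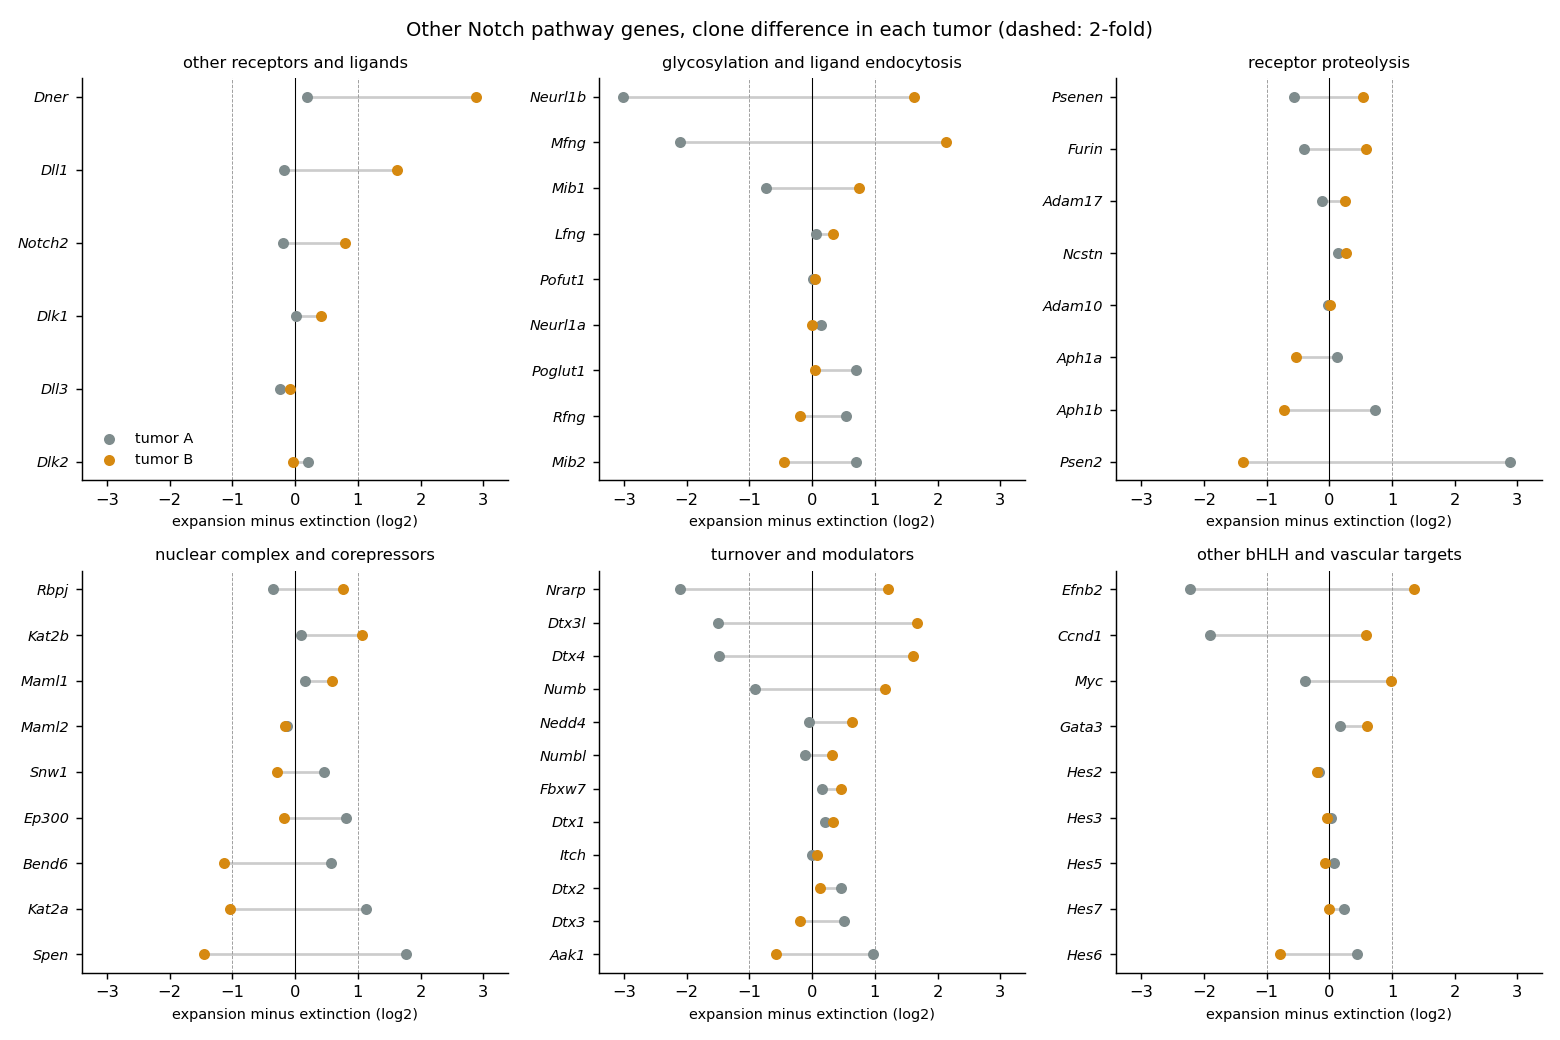
Difference of expansion minus extinction (x axis, log2) in tumor A (grey) and tumor B (orange) for the 53 measured further genes of the pathway in 6 groups; dashed lines mark 2-fold. In 6 genes, among them Nrarp, Efnb2 and Mfng, both points lie beyond 2-fold in the direction of the Notch genes, and in Psen2, Spen and Kat2a in the other.

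The tumors were compared next, B against A. Between the expansion arrays all 10 Notch genes were higher in Tumor B, 6 of them at least 2-fold (11 percent of all genes; 7.19 percent were 2-fold lower), and between the extinction arrays all 10 were lower in Tumor B, 7 of them at least 2-fold (8.05 percent of all genes; 4.2 percent were 2-fold higher). For the signs alone the share of all genes was not counted, so the counts of all 10 are no result about these genes. Notch4 differed by 2.19 between the expansion arrays and by -1.58 between the extinction arrays, Hey1 by 1.59 and -1.75, and Notch1 by 1.87 and -1.11. Heyl and Hey2 differed by 0.081 and 0.20 between the expansion arrays and by -0.67 and -1.69 between the extinction arrays. The values of the 2 tumors overlapped for all 10 genes, which follows from their opposite signs in the 2 classes. The 23.2 percent of all genes whose tumors did not overlap is therefore no comparison for them. Across classes the mean difference was smaller than its error for 9 of the 10 genes. It was 0.30 ± 1.10 (SE, n = 2 per tumor) for Notch4, 0.38 ± 0.82 (SE) for Notch1 and -0.46 ± 0.51 (SE) for Notch3. For Hey2, the one gene of the 10 whose difference exceeded its error, it was -0.75 ± 0.62 (SE). Limma called none of the 10 (adjusted p = 1 for each) and 0 of 45037 probe sets (0 percent), while 648 (1.44 percent) had an unadjusted p under 0.05, none of them a probe set of these genes.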

How the data were processed

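Gene expression was measured on 4 arrays. TRIzol-extracted RNA went through 2 amplification rounds before hybridisation, per the labels' protocols. The deposited values are on a log2 scale; the submitters' processing notes name RMA and affy, without versions or the probe set definition. RMA includes quantile normalization, so a level on 1 array depends on the others.

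Of 45101 probe sets, 64 controls were set aside. Symbols came from the platform annotation (34945 probe sets with 1 symbol, 932 with several and 9160 not listed), and matching gene IDs to RefSeq changed 0 of them. Clone classes and tumors were compared by two-sided moderated tests of limma (version 3.58.1, run under R version 4.3.3), with Benjamini-Hochberg adjustment over 45037 probe sets and a threshold of 0.05; SEs and intervals are limma's moderated ones. The step was tested on simulated data with known differences. That check was on the mean estimate and not on how many differences were called. Nothing but the titles says that the arrays are biological replicates, and n = 2 per class limits the precision.

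The labels pair the arrays, since 1 number stands for 1 tumor. As a check, their deviations from the class means correlated at -0.66 over 18193 genes. Arrays alike by tumor would give a value above 0, so the check did not bear out the pairing. The main fits left the pairing out, and the replicate block was run as an alternative. The Notch genes, the pathway list and the marker lists were chosen with earlier results of these data known. Named were all 10 genes, up to 3 genes per pathway group with the same sign in both tumors by size of the mean difference, and 3 genes with the nearest profile for each of 4 Notch genes. Of the pathway and marker lists, Efnb2 and Sox17 stood in 2. Of the pathway genes, 4 were not analysed here.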

Additional observations from a re-analysis of the deposited data

Results flagged for a closer look

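In 5 genes the difference between expansion and extinction had opposite directions in the 2 tumors and was at least 2-fold in both. The difference in Tumor A minus that in Tumor B was -2.98 for Notch1, -3.77 for Notch4, -2.77 for Dll4, -2.62 for Hes1 and -3.34 for Hey1, all on the log2 scale. For the median over the 10 Notch genes it was -2.69. No test of it was made, since every combination of class and tumor had a single array.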

How the results depend on the processing

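Limma called 0 of the 10 Notch genes between clone classes and between tumors, and 0 of the 53 further pathway genes between clone classes, under every alternative run: quantile normalization again, subtraction of array medians, a floor at the median level of probe sets (9 of the 10 genes, Hey2 falling out, and 45 of the 53), averaging of a gene's probe sets, subtraction of the pan-endothelial mean, eBayes with trend and robust estimation, the replicate block (tumor as a block, or clone class as a term between tumors), and leaving out each array. The replicate block therefore changed no call. The count of genes 2-fold apart in opposite directions went from 5 to 3 with averaged probe sets and to 2 with the pan-endothelial mean subtracted; the latter 2 ran the other way. The median difference in Tumor A, -1.53, became -1.32 with the mean of probe sets and 0.79 with the pan-endothelial mean subtracted, and that in Tumor B, 1.16, became 0.82 and -0.59. These within-tumor values cannot be had without an array of that tumor.

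Of 109 alternatives for the clone difference of single genes, 90 kept the direction and 19 turned it. Of the 19, 14 came from leaving out an array and 5 from other settings. The floor at the median level, eBayes with trend and the replicate block cannot change this difference. Their place among the 90 is therefore no check of it. With the pan-endothelial mean subtracted the clone difference turned to 0.098 for Notch1, 0.11 for Notch3, 0.10 for Dll4, 0.27 for Hes1 and 0.076 for Hey1. The subtraction raises the difference of every gene by the same amount, so small negative differences must turn. These turns are no result about single genes. Leaving out each array in turn gave -1.12 to 0.75 for Notch1, -0.86 to 0.50 for Notch3, -1.86 to 0.33 for Notch4, -0.88 to 0.51 for Dll4, -0.035 to 0.96 for Jag2, -0.81 to 0.79 for Hes1, -1.08 to 0.67 for Hey1 and -1.48 to 0.22 for Hey2.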
